A study of Mus musculus with 57 samples.

Results

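Tph2, Gpr50, Tmem132b, Plppr4, Grid1, Pkp1, Cacng5 and Mup-ps21 are 8 of the 52853 genes with counts in the tables, and they were chosen by name because they fell most in inguinal white adipose tissue (WAT) of mutant mice. Most of them are known from other tissues. Their fold changes between genotypes in inguinal WAT chose them and are given here as a description, with an estimate and its standard error (SE) but no p-value. What the choice did not use is the difference between mutant and wild-type (WT) mice in brown adipose tissue (BAT), and the genes of their families and surroundings. The lists of family genes were, however, drawn up with earlier results of these data known.

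RNA was sequenced from inguinal WAT and BAT of male mice on the C57BL/6J strain, either WT or homozygous for Mfn2 R707W (KI). The KI allele was made by CRISPR, came from 1 founder, is carried in all cells and holds a silent marker change beside the substitution. Genotypes were littermates kept together, and from 5 weeks of age they ate chow or a high fat diet (HFD, 45% of energy as fat) for 6 months. Inguinal WAT on HFD came from 8 WT and 8 KI mice, inguinal WAT on chow from 7 WT and 6 KI mice, and BAT on HFD from 6 WT and 6 KI mice. Counts totalled 17572752 to 25680411 per mouse in inguinal WAT on HFD, and 8042591 to 11720458 in the other tables, so that few reads of a rare transcript could be seen there. Levels are counts scaled to library size (CPM), and log2 differences are KI minus WT unless another order is named. These are whole tissue pieces, in which fewer cells of a type and less RNA per cell cannot be told apart.

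As background, Tph2 is the rate-limiting enzyme of serotonin synthesis in neurons of the brain stem, which hydroxylates tryptophan, whereas Tph1 serves the gut and pineal gland. Gpr50 is an orphan receptor related to the melatonin receptors and best known from the hypothalamus. Grid1 encodes a delta glutamate receptor subunit that organizes synapses by binding cerebellins, Cacng5 an accessory subunit of AMPA-type glutamate receptors, and Plppr4 a membrane protein that modulates lysophosphatidate signalling at excitatory synapses. Tmem132b encodes a single-pass membrane protein studied mostly in brain. Pkp1 is a plaque protein of desmosomes, the adhesive junctions of skin and other stratified epithelia. Mup-ps21 is an unprocessed pseudogene of the major urinary proteins, lipocalins secreted by liver and glands.

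The members are scattered over 8 chromosomes. In GRCm38 coordinates of the tables, Tph2 lies at chr10:115078641-115185022 on the minus strand and Gpr50 at chrX:71663667-71669257 on the plus strand. Mup-ps21, at chr4:62029342-62031662, is the only member on the chromosome of Mfn2, whose start lies 85.8 Mb away. Promoter windows, from 250 bases before to 50 bases after the annotated start, were found in RefSeq (GRCm38.p6) for 5 of the 8 members. They are shown for Tph2, the member with the highest mean level per length in WT mice, and for Gpr50, because both carry letters of known elements near the start; capitals mark the matches described next.
Tph2 promoter, chr10:115184973-115185272, minus strand: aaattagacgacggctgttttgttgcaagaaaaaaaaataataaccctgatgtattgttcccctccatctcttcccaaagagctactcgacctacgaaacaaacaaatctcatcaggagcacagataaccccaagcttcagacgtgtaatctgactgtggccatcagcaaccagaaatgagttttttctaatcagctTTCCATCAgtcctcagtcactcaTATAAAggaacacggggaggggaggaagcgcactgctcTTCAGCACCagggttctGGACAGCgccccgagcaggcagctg
Gpr50 promoter, chrX:71663417-71663716, plus strand: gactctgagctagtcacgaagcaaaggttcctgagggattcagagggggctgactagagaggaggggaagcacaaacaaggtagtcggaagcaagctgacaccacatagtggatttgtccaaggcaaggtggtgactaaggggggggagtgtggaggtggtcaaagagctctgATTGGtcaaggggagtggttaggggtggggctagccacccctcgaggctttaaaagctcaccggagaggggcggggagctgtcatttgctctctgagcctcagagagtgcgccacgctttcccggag
In the Tph2 window a TATA box (TATAAA) began 30 bases before the start. Downstream of the start stood both parts of RE1, the element bound by the neural repressor REST, TTCAGCACC and GGACAGC, with 8 bases between them. Of 32817 such windows in the genome, 0.372% held the left part, 6.56% the right part and 0.0427% both, on either strand. The Tph2 window also held the C/EBP-ATF letters TGATGNAA on the opposite strand, found in 3.97% of windows, and the other 5 member windows (4 genes, Cacng5 with 2) held none of these elements. CCAAT letters stood in the windows of Gpr50 and of Cacng5, and in 37.4% of all windows. Neither CACGTG nor TGACGTCA was in any of the 6 member windows. These matches describe letters and no binding was measured.

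The library labelled WT chow mouse 4 stood apart from the other 28 inguinal libraries and went against its label. Markers of mesothelium, the lining of the body cavities, were high in it and near 0 elsewhere: Wt1 was at 11.6 CPM against at most 0.167, Msln at 18.7 against at most 0.445, and Upk3b at 38.9 against at most 0.217. Hoxc10, a positional gene of the hind part of the body, was at 0.168 CPM in this library and between 17.5 and 53.7 in the other 28. Tbx15 and Shox2, 2 further genes of subcutaneous fat position, were at 0.419 and 0.335 CPM against at least 9.70 and 10.8. The source of this library was not tested, these genes were picked after the library had been seen to differ, and chow results of the 8 members are given with and without it. All 14 adipocyte markers had counts in every group, and the 9 brown adipocyte markers summed to at least 9792 CPM in BAT and at most 926 CPM in inguinal WAT.

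**Figure D1:**
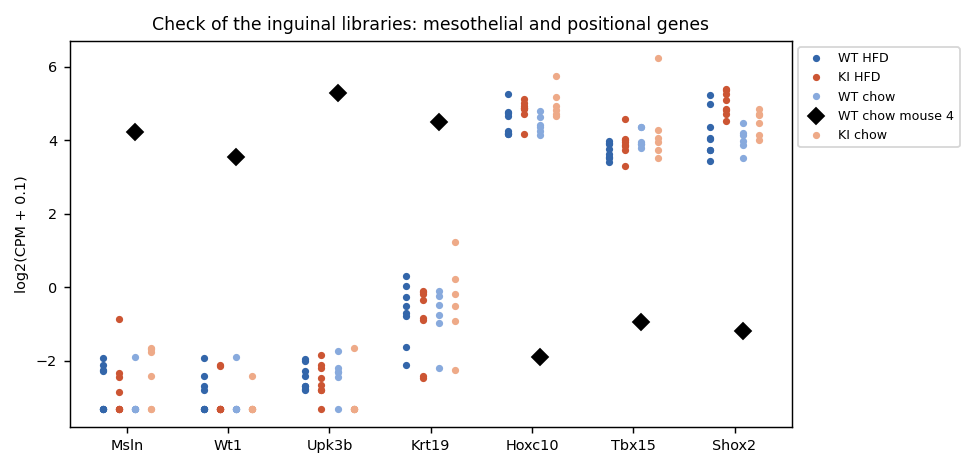
Levels of mesothelial genes (Msln, Wt1, Upk3b), the keratin Krt19 and positional genes (Hoxc10, Tbx15, Shox2) in 29 inguinal libraries, as log2(CPM + 0.1); points are mice and the diamond is WT chow mouse 4. The diamond lies above all other libraries for the first 4 genes and below all others for the last 3.

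On HFD every member was lower in every KI mouse than in any WT mouse. All 8 passed the filter on low counts and all 8 were called lower at an adjusted p below 0.01 (edgeR's quasi-likelihood test), against 5.24% of the 16471 genes tested. Separation of all KI from all WT mice in this direction was found for 2.37% of genes tested. Neither share says anything about the members, since this contrast chose them. Counts reached 10 in all 8 WT mice for every member but in no KI mouse for Cacng5 and Mup-ps21 and in 1 KI mouse for Gpr50 and Pkp1, so that these passed the filter through the WT group.

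Tph2, the serotonin enzyme, ranged in WT mice on HFD from 40.3 CPM through a median of 64.0 to 183 CPM, that is from 876 to 3373 reads. KI mice had from 0.533 through 1.17 to 2.07 CPM, or 12 to 47 reads. The KI mean was 1.45% of the WT mean, and the log2 difference was -6.11 (SE 0.41). All KI mice still had reads of this gene.

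Gpr50, the melatonin receptor relative, held 8.90, 12.4 and 25.0 CPM as lowest, median and highest value in WT mice on HFD, and 0.0406, 0.0873 and 0.504 CPM in KI mice. Its log2 difference was -6.40 (SE 0.41), with 1 to 13 reads per KI mouse. Tmem132b ran from 3.34 through 11.8 to 27.6 CPM in WT mice, an 8.28-fold range and the widest of the 8 members on HFD. In KI mice it lay between 0 and 0.468 CPM, with a median of 0.103, and the log2 difference was -6.29 (SE 0.60).

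The synaptic genes Plppr4 and Grid1 fell less on HFD and kept clear counts in the mutant. Plppr4 had 3.43, 4.46 and 10.8 CPM in WT mice and 0.310, 0.538 and 1.86 CPM in KI mice, a log2 difference of -3.08 (SE 0.38). Grid1, with the narrowest range among WT mice (1.89-fold), had 6.19, 7.12 and 11.7 CPM in them and 0.731, 1.09 and 1.81 CPM in KI mice, a log2 difference of -2.86 (SE 0.20). Every KI mouse on HFD had at least 18 Grid1 reads and at least 7 Plppr4 reads. Among the 387 genes that were called lower on HFD with no overlap, Plppr4 stood 28th and Grid1 38th by size of the fall, whereas the other 6 members stood within the first 8. C6, the complement component, and Lipf, a lipase, lay between them in sixth and seventh place, at log2 differences of -5.05 (SE 0.24) and -4.52 (SE 0.21).

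Pkp1, the desmosomal protein, had 1.69, 5.33 and 10.1 CPM in WT mice on HFD and 0.0387, 0.0775 and 1.20 CPM in KI mice, a log2 difference of -4.48 (SE 0.66). The highest KI value came from mouse 3 alone, with 27 reads against at most 6 in the other KI mice. That mouse also had the highest summed level of the 15 epithelial and mammary markers among KI mice on HFD, 35.4 CPM against a group median of 3.30, and the highest of the 10 skeletal muscle markers, 4863 CPM against a group median of 169.3; the part of either in the Pkp1 value was not tested. Without it the log2 difference was -5.58.

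Cacng5, the AMPA receptor accessory subunit, had in WT mice on HFD 0.652, 1.78 and 2.27 CPM or 15 to 52 reads. Only 1 of 8 KI mice had any read of it, namely 2. Set against a floor of 3 reads per library, it was at least 11.7-fold lower in KI mice. Mup-ps21, the urinary protein pseudogene, had 7.91, 10.9 and 15.9 CPM in WT mice. KI mice held 0 to 5 reads of it, 4 of 8 mice none, and its log2 difference was the largest of the 8 at -7.15 (SE 0.45).

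**Figure D2:**
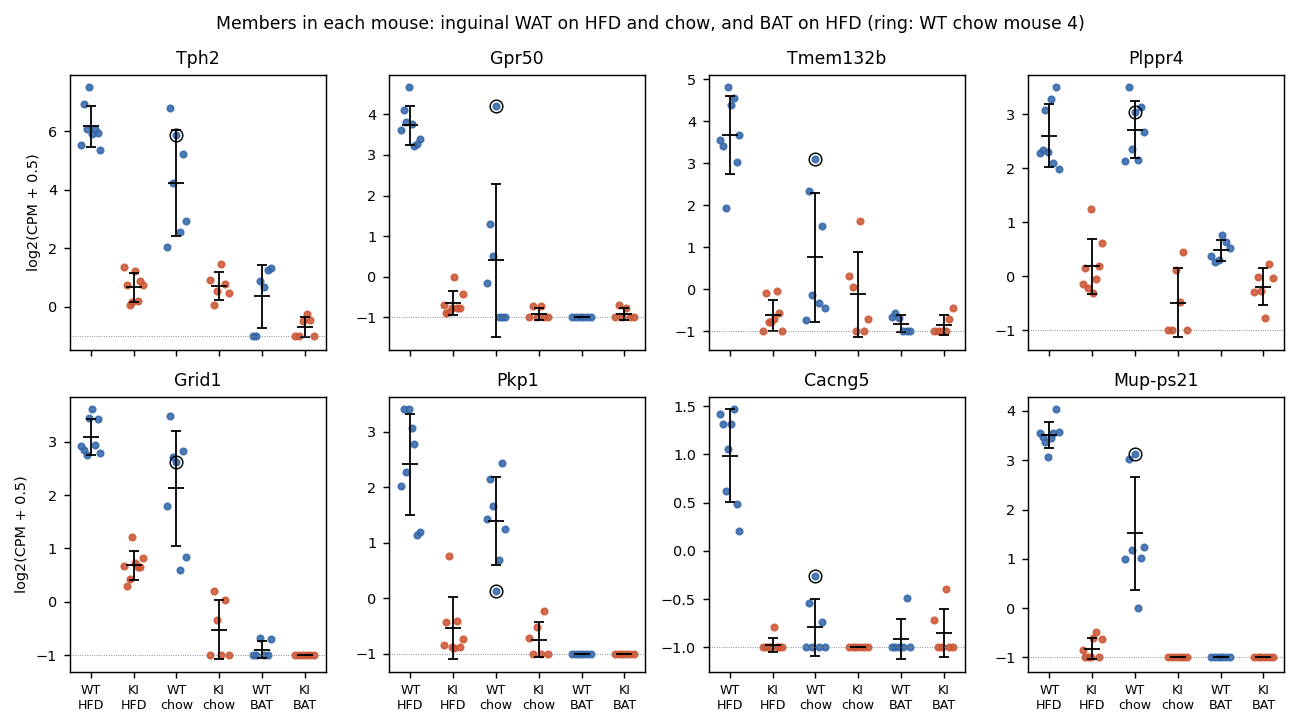
The 8 members in each mouse, as log2(CPM + 0.5), for WT (blue) and KI (red) mice in inguinal WAT on HFD and chow and in BAT on HFD; black bars are the mean ± SD over mice and the dotted line is the value of 0 CPM. On HFD no KI point reaches a WT point in any panel, and the ring marks WT chow mouse 4, which holds the highest chow value of Gpr50 at 17.8 CPM.

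Compared per gene length (RPKM, CPM per kilobase of transcript), the order of mean levels in WT inguinal WAT on HFD was Tph2, Mup-ps21, Gpr50, Tmem132b, Grid1, Pkp1, Plppr4 and Cacng5. Tph2 stood at 28.0 ± 16.7 RPKM (SD, n = 8) and Mup-ps21 at 24.7 ± 5.04 RPKM, levels that did not differ beyond their spread. Gpr50 followed at 4.40 ± 1.73 RPKM, and no WT mouse had a Mup-ps21 level as low as the highest Gpr50 level of 8.14 RPKM. From Tmem132b (1.76 ± 1.01 RPKM) through Grid1 (1.38 ± 0.366) and Pkp1 (1.14 ± 0.678) to Plppr4 (0.847 ± 0.397) each neighbour lay within the spread of the next. Cacng5 closed the order at 0.410 ± 0.164 RPKM.

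On chow 5 of the 8 members could be tested and all 5 were called lower in KI mice, against 1.22% of the 14629 genes tested. The same 5 had every KI mouse below every WT mouse, as did 1.5% of genes tested. This contrast entered the choice too, so that nothing is read from these shares, and Grid1, Pkp1 and Mup-ps21 reached 10 counts in no KI mouse on chow and passed the filter through the WT group. Gpr50, Tmem132b and Cacng5 were too low on chow to pass the filter. When WT chow mouse 4 was left out, Plppr4, Grid1 and Pkp1 were still called, Tph2 missed the threshold and Mup-ps21 was no longer tested; the KI and WT mice of all 5 remained apart. In the 13 fits that left out 1 mouse 2 to 4 members were called, and without the filter 3 were. Plppr4 and Grid1 were called in all 13, and Pkp1 in all 7 of these fits that tested it. Tph2 was called in 6 of 13 and Mup-ps21 in 1 of the 7 that tested it.

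Among WT mice Tph2, Grid1, Tmem132b and Mup-ps21 ran over wider fold ranges on chow than on HFD, with and without mouse 4. Plppr4 did not (2.79-fold on chow and 3.15-fold on HFD), and Pkp1 did so only with mouse 4 (8.33-fold with it, 4.37-fold without it and 5.97-fold on HFD). Tph2 ran from 3.58 through 18.5 to 110 CPM in 7 WT mice, a 30.7-fold range, against 4.54-fold on HFD. KI mice on chow had 0.542, 1.09 and 2.26 CPM, close to the values of KI mice on HFD, and the log2 difference was -4.82 (SE 0.90), or -4.64 (SE 0.94) without WT mouse 4. The lowest WT mouse had 36 reads and the highest KI mouse 21.

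Plppr4 varied least among WT mice on chow, at 3.88, 5.84 and 10.8 CPM in WT mice, and 3 of 6 KI mice had no read of it while the others had up to 0.866 CPM. Its log2 difference was -4.39 (SE 0.62), or -4.33 (SE 0.62) without WT mouse 4. Grid1 had 1.02, 5.61 and 10.7 CPM in WT mice and at most 0.650 CPM, that is 6 reads, in KI mice. Its log2 difference was -4.22 (SE 0.76), or -4.19 (SE 0.79) without that mouse.

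Pkp1 had 0.586, 2.19 and 4.88 CPM in WT mice on chow, and the lowest of them was mouse 4. KI mice had at most 4 reads, and the log2 difference was -4.26 (SE 0.68), or -4.43 (SE 0.60) without WT mouse 4. Mup-ps21 had no read in any of the 6 KI mice on chow, where a count of 0 allows up to 0.260 to 0.332 CPM depending on the library. WT mice had 0.508, 1.76 and 8.29 CPM, so that it was at least 10.7-fold lower in KI mice, or at least 7.99-fold without WT mouse 4, which held the highest value.

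Gpr50 on chow came almost entirely from 1 library. WT mouse 4 had 213 reads or 17.8 CPM, 84.5% of the summed level of the 7 WT mice, the next highest had 21 reads, and 3 WT mice had none. KI mice had 0 or 1 read. Against the floor of 3 reads, Gpr50 was at least 9.78-fold lower in KI mice with WT mouse 4 and at least 1.77-fold without it. Tmem132b had 0.0994, 0.418 and 8.12 CPM in WT mice and 0, 0.326 and 2.58 CPM in KI mice, and the genotypes overlapped. Its KI mean was 28.9% of the WT mean, or 50.0% without WT mouse 4. The highest KI value, 24 reads, came from chow KI mouse 4, where 10 skeletal muscle markers summed to 74740 CPM against a group median of 158 CPM; its part was not tested. Cacng5 had at most 4 reads in any WT mouse on chow and none in any KI mouse, so no fold is given.

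**Figure D3:**
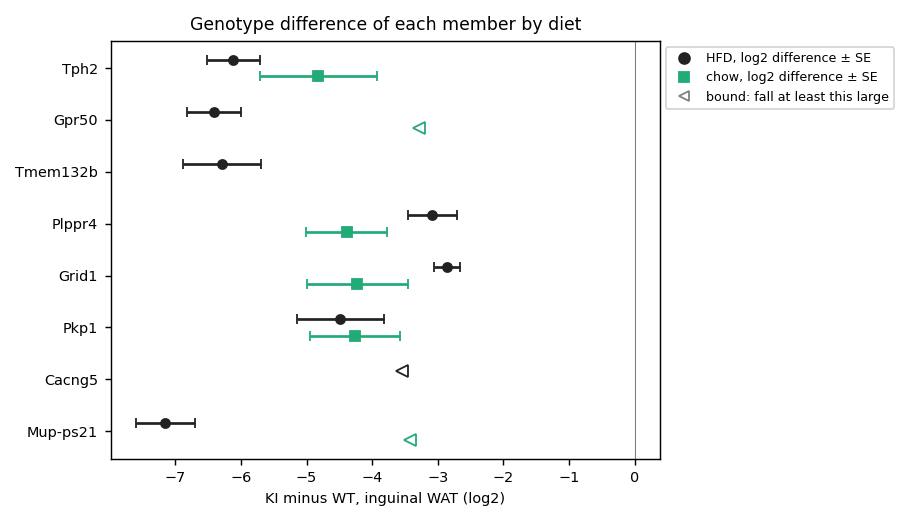
Log2 difference between KI and WT mice in inguinal WAT for each member, on HFD (black circles) and chow (green squares), with bars for ± 1 SE; open triangles are bounds set by a floor of 3 reads per library where no KI mouse had more, and Tmem132b and Cacng5 have no chow symbol because they neither passed the filter there nor gave a bound. Tph2 lies further from 0 on HFD (-6.11) than on chow (-4.82), and Plppr4 and Grid1 lie nearer to 0 on HFD (-3.08 and -2.86) than on chow (-4.39 and -4.22). The chow bound of Gpr50 rests on WT chow mouse 4, being 9.78-fold with it and 1.77-fold without it, and the genotypes overlapped.

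The difference of the genotype effect between diets was estimated for the 5 members with reads above the floor in all 4 groups. It is a description too, because both contrasts entered the choice. The effect on HFD minus the effect on chow was 1.35 (SE 0.72) for Plppr4 and 1.42 (SE 0.69) for Grid1. Without WT chow mouse 4 these were 1.30 (SE 0.74) and 1.37 (SE 0.71). For Tph2 it was -1.26 (SE 0.96), or -1.46 (SE 0.98) without that mouse, and for Pkp1 -0.13 (SE 1.65), or 0.03 (SE 0.46). For Tmem132b it was -4.43 (SE 1.24), a larger fall on HFD, and -5.23 (SE 1.22) without WT chow mouse 4. Over the 29 fits that left out 1 mouse the Tmem132b estimate ran from -5.23 to -3.19. Only Grid1, with all mice, and Tmem132b lay more than 2 SE from 0. None of the 8 members was called in this interaction by edgeR at an adjusted p below 0.01, where 0.845% of 17400 genes were, and 1 was at 0.05. In KI mice alone, the mean level of Grid1 was 1.13 ± 0.324 CPM (SD, n = 8) on HFD and 0.243 ± 0.290 CPM (SD, n = 6) on chow.

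Among WT mice, the level by diet split the members. Diet and table are the same division, so an effect of diet and one of separate processing cannot be told apart. Plppr4 was nearly level, at a log2 difference (HFD minus chow) of -0.17 (SE 0.29), and Grid1 was at 0.67 (SE 0.38). Mup-ps21 was higher on HFD by 1.66 (SE 0.44) on the log2 scale, Pkp1 by 1.13 (SE 0.46) and Tph2 by 1.15 (SE 0.65). The estimates for Gpr50 and Tmem132b turned on WT chow mouse 4: Gpr50 stood at 2.07 (SE 0.89) with it and 4.44 (SE 0.61) without it, and Tmem132b at 2.56 (SE 0.72) and 3.33 (SE 0.72). Cacng5 had 15 to 52 reads in each WT mouse on HFD and 0 to 4 on chow. Over all genes tested, 27.7% were called between these diets, as were Cacng5 and Mup-ps21, and without mouse 4 also Gpr50 and Tmem132b. Nothing is read from these calls, since the WT mice on HFD belong to the contrast that chose the members and Cacng5 passed the filter through them. The call of Mup-ps21 was lost in 9 of the 15 fits that left out 1 mouse.

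The genotype contrast in BAT did not enter the choice of members. All 8 were lower in BAT than in inguinal WAT of WT mice on HFD and were called so, as were 29.5% of the 16271 genes tested. The choice favours this, because genes that fell in inguinal WAT were high there in WT mice and passed the filter through it, and tissue and table cannot be told apart. Pkp1 and Mup-ps21 had no read in any of the 12 BAT libraries. Gpr50, Tmem132b, Grid1 and Cacng5 had at most 3 reads in any, so that no genotype difference could be measured for them. None of the 8 passed the filter in BAT, where 0.475% of 13267 genes were called lower and 1.83% in either direction.

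Tph2 and Plppr4 were the only members with more than 3 reads in a BAT library. Plppr4 had 6 to 10 reads in the 6 WT mice and 1 to 6 in the 6 KI mice, or 0.905 ± 0.194 CPM against 0.395 ± 0.199 CPM (SD, n = 6 each). Every KI mouse lay below every WT mouse in CPM, and the KI mean was 43.6% of the WT mean (2-sided exact permutation test, p = 0.0022, the smallest that 6 against 6 mice allow; 6 members were compared). In a fit without the filter on low counts the adjusted p over all genes was 0.196, and 0.110 by DESeq2. Tph2 had no read in WT mice 1 and 2 and 9 to 18 reads in the other 4, and 0 to 4 reads in KI mice. WT mice averaged 1.05 ± 0.884 CPM and KI mice 0.131 ± 0.151 CPM (SD, n = 6; exact permutation test, p = 0.0606), a difference that did not pass 0.05. The adjusted p over all genes was 0.138 without the filter and 0.0407 by DESeq2.

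Set beside the fall in inguinal WAT on HFD, the genotype effect in BAT was smaller by 1.90 (SE 0.60) for Plppr4 and by 3.32 (SE 1.60) for Tph2 on the log2 scale. These are given without a test because the inguinal contrast chose the members. The interaction called 1 member, Cacng5, whose BAT reads were at or under the floor, so its estimate is not given. Over all genes 2.82% were called.

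Among single WT mice on HFD the members did not move as 1 group. Of 28 pairs, 18 had a positive and 10 a negative Pearson's r of log2(CPM + 0.5), with a median of 0.23. Tph2 and Gpr50 had the highest r, 0.84 (exact permutation test, p = 0.0089; adjusted p = 0.112 over 49 pairs; Spearman's rho 0.62, p = 0.115), and it fell to 0.072 without the 2 mice farthest from the median of Tph2, so that it rests on those. Mice 4 and 2 had the highest levels of both genes. Mup-ps21 ran against Gpr50, at r = -0.81 (exact permutation test, p = 0.02; adjusted p = 0.117; Spearman's rho -0.79, p = 0.0279) and -0.76 without the 2 farthest mice. It also ran against Pkp1, at r = -0.72 (exact permutation test, p = 0.0237; adjusted p = 0.117; Spearman's rho -0.83, p = 0.0154), and -0.48 without the 2 farthest mice. Of the 28 pairs 6 had an unadjusted p under 0.05 and none an adjusted one.

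On chow the same genes rose and fell across WT mice more nearly together. Mouse 2 was above the mean of its group for all 8 members, whereas mice 5 and 7 were above it for none. Among 21 pairs of the 7 members other than Cacng5, which had too few reads, 18 had a positive r, with a median of 0.70. The highest was that of Tph2 with Tmem132b, at 0.92 (exact permutation test, p = 0.00476; adjusted p = 0.112; Spearman's rho 0.93, p = 0.00675), followed by Tph2 with Plppr4 at 0.91 (exact permutation test, p = 0.00913; adjusted p = 0.112; Spearman's rho 0.93, p = 0.00675). They were 0.91 and 0.80 without the 2 mice farthest from the median of Tph2, and 8 of the 21 pairs had an unadjusted p under 0.05 but none an adjusted one.

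Without WT chow mouse 4 no negative pair was left among those computed, though not every r was higher, that of Tph2 with Mup-ps21 being 0.81 with it and 0.78 without it. Pairs of Gpr50 were not computed without that mouse, among them its pair with Pkp1, at r = -0.49 with all mice. All 3 negative pairs on chow had involved Pkp1, which was lowest in mouse 4. In the other 6 mice all 15 pairs of the 6 members still covered were positive, from 0.63 to 0.96 with a median of 0.79. The pair of Tph2 and Tmem132b reached 0.96 (exact permutation test, p = 0.00278; adjusted p = 0.0417 over 15 pairs; Spearman's rho 0.94, p = 0.0167), and it was the one pair past 0.05 after adjustment. Its r was 0.87 without the 2 mice farthest from the median, which left 4 mice. For Plppr4 with Tmem132b this step lowered r from 0.94 to 0.22, so that it rests on the mice left out.

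**Figure D4:**
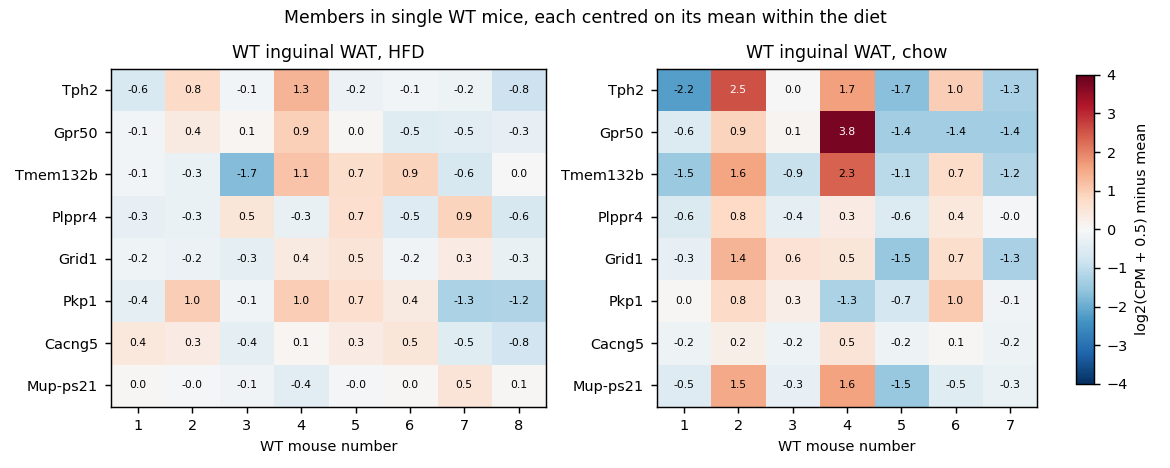
Each member in each WT mouse, as log2(CPM + 0.5) minus its mean over the WT mice of that diet, with red above and blue below the mean and the number printed in the cell. On chow the column of mouse 2 is red throughout and mouse 5 blue throughout, whereas on HFD the colours are mixed within most mice.

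**Figure D5:**
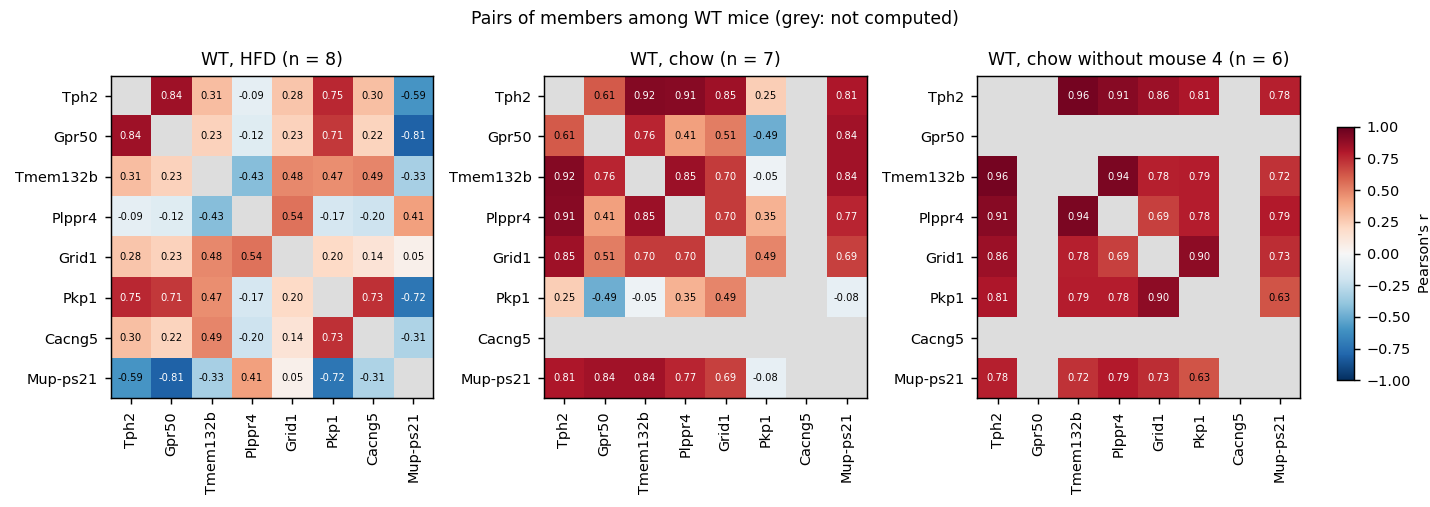
Pearson's r for each pair of members among WT mice on HFD (n = 8), on chow (n = 7) and on chow without mouse 4 (n = 6), from blue at -1 to red at 1, with grey for pairs not computed. Positive values fill the right panel, at 0.63 to 0.96, and the left panel holds both signs.

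The mean centred level of the members was set beside lists of cell type markers in the same WT mice, as a description over 11 lists on each diet. On HFD it ran against genes known to rise with fat expansion, among them Lep and Mest (r = -0.73, n = 8, 8 genes), and on chow without mouse 4 it ran with them (r = 0.89, n = 6), with 0.11 when mouse 4 was included. On chow it ran against the 14 adipocyte markers, at r = -0.76 with all 7 mice and -0.83 without mouse 4, the latter falling to -0.35 without the 2 farthest mice. Without mouse 4 it also ran with 10 skeletal muscle markers (r = 0.93) and 12 Schwann cell and nerve markers (r = 0.83), where the values with mouse 4 were 0.63 and -0.33. Values on HFD for these 3 lists were 0.24, 0.43 and -0.02. The muscle markers summed to 785 and 810 CPM in chow WT mice 2 and 6 and to 44.0 and 50.5 CPM in mice 1 and 5. Neuron markers, 15 genes of which 5 were high enough to use, had r = 0.07 on HFD, 0.22 on chow with 6 genes used and -0.23 without mouse 4. Macrophage, lymphocyte, endothelial, fibroblast, epithelial and brown adipocyte lists lay between -0.32 and 0.42 on HFD. On chow these 6 lists ran from -0.675 for brown adipocytes to 0.75 for macrophages, and without mouse 4 from -0.56 for brown adipocytes to 0.72 for fibroblasts. No list had an adjusted p under 0.05 on either diet, the smallest being 0.0611 for skeletal muscle on chow without mouse 4 (exact permutation test of r). No part of these lists in the members' levels was tested.

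Between genotypes, none of the 12 nerve, 15 neuron, 15 epithelial, 8 endothelial or 10 lymphocyte markers was called by edgeR in inguinal WAT on either diet, where 11.5% of genes on HFD and 3.27% on chow were called. Of their 37 genes tested on HFD and 34 on chow, 4 and 8 had an unadjusted p under 0.05 by edgeR, and DESeq2 called 2 and 1. Of all genes, 5426 of 16471 on HFD and 3591 of 14629 on chow had such a p. Without WT chow mouse 4 edgeR again called none of the 34, with 8 at an unadjusted p under 0.05. Other lists did hold calls. Of the 9 brown adipocyte markers 5 were tested and 2 were called higher on each diet, on chow Cidea (log2 difference 3.03, SE 0.56, adjusted p = 0.0056 by edgeR) and Cox8b (2.42, SE 0.37, adjusted p = 0.00139), at 2.85 and 2.34 without mouse 4. Cox7a1 (2.01, SE 0.58) and Lhx8 (0.30, SE 0.50) were not called on chow, nor was Ppargc1a, which was lower (-0.69, SE 0.35). Ucp1, Dio2, Elovl3 and Zic1 were not tested there. They averaged 0.205, 0.627, 0.0552 and 0.0239 CPM in WT mice and 0.369, 0.265, 3.41 and 0.161 CPM in KI mice. The sums of the 9 markers did not overlap on chow, at 46.0 to 137 CPM in WT and 172 to 926 CPM in KI mice. In these sums Cidea and Cox8b averaged 27.85 and 40.02 CPM in WT and 227 and 214.6 CPM in KI mice. On HFD the sums had medians of 33.2 and 57.8 CPM. The part of these markers in the members' levels was not tested. Of 14 adipocyte markers 3 were lower and 3 higher on HFD and 1 lower on chow, the 10 macrophage and the 10 fibroblast markers held 1 lower each on HFD, and no skeletal muscle marker was called by edgeR or DESeq2 on either diet, with 0 of 10 on HFD and 4 of 5 on chow at an unadjusted p under 0.05. The neuron markers summed to 21.3 to 28.5 CPM in WT and 19.0 to 31.5 CPM in KI mice on HFD. The nerve markers summed to 325 to 702 CPM and 352 to 826 CPM. Epithelial markers summed to 2.38 to 7.27 CPM and 2.44 to 35.4 CPM, with 2 of 15 genes at 0 in all WT mice. On HFD the sums of these 3 lists overlapped between genotypes. They are not set against the members, whose separation on HFD follows from their choice by this contrast.

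The rest of the serotonin and melatonin pathway did not follow Tph2 and Gpr50 as a set. Of 31 other genes, 13 were tested on HFD and 3 were called, 1 lower and 2 higher, where 11.5% of all genes were called, with a median log2 difference of 0.04 against 0.01 for all genes. Slc6a4, the serotonin transporter, fell from 1.02 to 0.359 CPM (log2 difference -1.47, SE 0.37, adjusted p = 0.00872). Maoa, the mitochondrial enzyme that degrades serotonin, rose from 40.6 to 108 CPM (log2 difference 1.41, SE 0.19, adjusted p = 3.71e-05 by edgeR), and Aldh2, the dehydrogenase of the next step, from 448 to 685 CPM (log2 difference 0.61, SE 0.11, adjusted p = 0.000563). On chow and in BAT edgeR called no other gene of the pathway, of 9 and 8 tested, and on chow none again without mouse 4. In each, 2 had an unadjusted p under 0.05 by edgeR, as did 3591 of all 14629 genes and 3242 of all 13267. DESeq2 called 0 and 1 of the pathway. On HFD, Tph1 averaged 0.490 CPM in WT against 0.101 CPM in KI mice and was too low to test. Ddc, which makes serotonin from the product of Tph2, was at 0.302 and 0.178 CPM, at most 23 reads in a mouse, and the melatonin receptors Mtnr1a and Mtnr1b had no read in inguinal WAT on HFD. Slc6a4, Tph1 and Ddc were all too low to test on chow. There the mutant mean of Slc6a4 was the higher one, 0.802 ± 0.712 against 0.431 ± 0.227 CPM (SD). Tph1 also lay that way (0.324 ± 0.256 against 0.103 ± 0.129 CPM), whereas Ddc was lower in mutants (0.302 ± 0.448 against 0.624 ± 1.279 CPM).

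Among direct relatives only the TMEM132 and urinary protein families held a second gene called lower, by edgeR on HFD. Tmem132a fell from 36.1 to 15.7 CPM (log2 difference -1.20, SE 0.14, adjusted p = 4.65e-06), while Tmem132c, d and e were too low to test. Mup3, 51.8 kb from Mup-ps21, fell from 1.11 to 0.101 CPM (log2 difference -3.33, SE 0.50, adjusted p = 9.21e-05) and was the only one of 47 other urinary protein entries that could be tested. None of the 349 windows of 100 bases along the 448-base Mup-ps21 transcript occurred exactly in another GENCODE vM21 transcript, and its nearest relative in an ungapped comparison was Mup20, at 91.5% identity. Multi-mapping reads of this family remain uncertain in any counting.

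The other families held calls in either direction, or none, on HFD. Of the lipid phosphatase relatives of Plppr4, Plppr3 rose from 40.4 to 62.8 CPM (log2 difference 0.64, SE 0.12, adjusted p = 0.00095), Plpp6 had a log2 difference of 0.52 (SE 0.09, adjusted p = 0.000501), and Plppr2 was not called. Pkp2, Pkp3 and Pkp4, the other plakophilins, were all tested and none was called by edgeR or DESeq2, with 0 at an unadjusted p under 0.05. Pkp2 and Pkp4, at 20.2 and 25.7 RPKM in WT mice, were far more abundant per length than Pkp1. Among 16 other desmosome genes 8 were tested, and Dsg1a fell (log2 difference -1.98, SE 0.29, adjusted p = 8.79e-05) while Jup and Ppl rose, by 0.52 (SE 0.11, adjusted p = 0.00155) and 0.78 (SE 0.16, adjusted p = 0.00194).

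For the glutamate receptors, none of the 8 relatives of Grid1 tested on HFD was called by edgeR or DESeq2. Their median log2 difference was -0.21, and 3 had an unadjusted p under 0.05 by edgeR, as did 5426 of all 16471 genes. Of the 7 other Cacng genes 2 could be tested and neither was called by edgeR or DESeq2, with 0 at an unadjusted p under 0.05. Cacng7 stood at 12.4 RPKM in WT mice, against 0.410 RPKM for Cacng5. Of 18 voltage-gated calcium channel subunits 15 were tested and 2 were lower, where 5.24% of all genes were, Cacna1d (log2 difference -1.12, SE 0.14, adjusted p = 9.45e-06) and Cacna2d1 (-0.48, SE 0.10, adjusted p = 0.00199). Cerebellins and neurexins had 1 gene tested, Nrxn2, which was called only in BAT, where it rose from 8.77 to 29.5 CPM (log2 difference 1.75, SE 0.20, adjusted p = 0.00015 by edgeR). On chow edgeR called none of the 44 genes tested from the 13 families and pathways, where it called 3.27% of all genes. Of these 44 genes 20 had an unadjusted p under 0.05 by edgeR, as did 3591 of all 14629 genes, and DESeq2 called 5. Without WT chow mouse 4 edgeR called 1 of 42, Plpp5, which was higher. On HFD edgeR called 12 of 58, where 11.5% of all genes were called.

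Genes around the members were called at a share near that of all genes. Of 65 tested neighbours within 500 kb on HFD, 5 were called lower and 3 higher, where 11.5% of all genes were called. On chow 1 of 54 was called, with and without WT mouse 4, where 3.27% of all genes were. In BAT 1 of 52 was called, where 1.83% of all genes were, namely Bri3bp near Tmem132b, which rose from 40.4 to 89.6 CPM (log2 difference 1.15, SE 0.14, adjusted p = 0.000158 by edgeR). Trhde, a peptidase 276 kb from Tph2, was the one neighbour called lower on both diets, from 8.49 to 1.84 CPM on HFD (log2 difference -2.21, SE 0.18, adjusted p = 1.04e-07) and from 6.74 to 1.55 CPM on chow (log2 difference -2.10, SE 0.27, adjusted p = 0.000352, or -2.12 without WT mouse 4). Near Mup-ps21, besides Mup3, Hdhd3 and the copper transporter gene Slc31a1 were lower by edgeR on HFD (log2 differences -0.84 and -0.54) and Alad was higher (0.37). Nav1 near Pkp1 was lower (-0.28), and Palmd and 4930455H04Rik near Plppr4 were higher (0.57 and 0.72). Of genes that overlap a member, 6 in all, the highest count in a mouse was 8. Whether reads were lost or moved between them was not tested.

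The genes most like the members among the 15 inguinal WT mice, by Pearson's r with the members' mean level centred within each diet, came from 14368 genes compared. They were Cdca7l (0.95), C6 (0.93), Ptprk (0.93), Slc5a7 (0.92), Cyp51 (0.915), Hydin (0.91), Hfe (0.91), Galns (0.91), Rbm28 (0.91) and Il13ra2 (0.91). Only 5 of these 10 stayed among the first 10 in the 14 mice without chow mouse 4, when Gtse1 led at 0.94 and Ephb2, Sez6l, Kcnj14 and Paqr9 entered. In both sets all 10 were called lower in KI mice on HFD, which 5.24% of genes were. On chow 0 and 3 were, where 1.22% of genes were. Nothing is read from these calls, since the WT mice that picked these genes belong to the same contrasts and the members were chosen by their fall. C6 is also the gene next after the first members in order of the fall on HFD, WT mice holding 32.3 ± 11.1 CPM of it and KI mice 0.974 ± 0.279 CPM (SD, n = 8 in either group). Hfe regulates iron uptake, Cyp51 makes cholesterol and Slc5a7 carries choline.

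For single members, the 3 genes most like each differed from member to member. They were Hydin, Hfe and Dlgap5 for Tph2 (r from 0.925 to 0.919), Akr1b10, Sh3bgrl2 and Pla2g7 for Gpr50 (0.929 to 0.927), and Ggt5, Tfr2 and Myh14 for Tmem132b (0.915 to 0.891). Plppr4 was most like Ufm1, Gorasp2 and Sel1l (0.905 to 0.871), which serve the endoplasmic reticulum and Golgi, and Grid1 like App, Ephb2 and Itpk1 (0.905 to 0.897). Pkp1 went with Uhrf1bp1, Lrrk2 and Mpc1-ps (0.869 to 0.812), Cacng5 with Nup210, Pknox2 and Gm37759 (0.801 to 0.756), and Mup-ps21 with Map7, Ogdhl and Npl (0.959 to 0.917). Without chow mouse 4 those of Gpr50 were Gm5578, Rassf4 and Gm43126 (0.889 to 0.862). These are descriptions over 15 mice that share libraries with every gene compared.

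On chow the genes next after the members in order of the fall were Gm7609, Ttc36 and D430019H16Rik, at log2 differences of -4.03 (SE 0.50), -3.61 (SE 0.60) and -3.58 (SE 0.40), or -3.97, -3.76 and -3.76 without WT mouse 4. D430019H16Rik was abundant, averaging 32.4 CPM in WT mice and 2.68 CPM in mutants. On HFD it stood at 27.4 and 11.1 CPM. Gm7609 and Ttc36 were low on HFD in both genotypes, at 1.55 and 0.883 CPM for Gm7609 and 0.587 and 0.335 CPM for Ttc36. The members are not set against them, because both diets entered the choice of members. C6 and Lipf, which came next on HFD, averaged 12.4 and 7.10 CPM in WT mice on chow. In KI mice on chow they averaged 0.993 and 0.738 CPM.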

How the data were processed

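RNA-seq libraries (57) of 41 mouse tissue samples were read from 3 deposited tables of raw counts per gene, which the authors made with cutadapt, STAR, SAMtools and featureCounts (versions not given) on GRCm38. The 2 technical libraries of each inguinal WAT sample on HFD share 1 count column, taken here as their sum. The tables list 54838 entries, of which 52853 genes were kept. Totals were 8042591 to 25680411 counts per mouse, and floors and zeros cover counting error only.

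From the counts, edgeR 4.0.16 (R 4.3.3, limma 3.58.1; TMM, filterByExpr, robust quasi-likelihood test, Benjamini-Hochberg adjustment over all genes, threshold 0.01) compared genotypes, diets and depots. SE is the estimate divided by the square root of F. CPM used TMM library sizes, and RPKM divided these by the listed gene length. Co-variation used log2(CPM + 0.5). The genome-wide steps were tested on simulated data.

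Other settings tried were RLE size factors, DESeq2 1.42.0, fits without the filter, another threshold, 1 fit of all groups, a replicate block and leaving out each mouse. Leaving out WT chow mouse 4 as a named alternative was added after seeing the data. Mouse numbers are not said in the labels to pair mice, and the correlations of same-numbered mice ran from -0.288 to 0.707.

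The members and lists were chosen with earlier results of these data known. Named besides members were called genes of their families, called neighbours within 500 kb, the next 3 genes in order of the fall and the genes most alike among WT mice. Of the next genes on HFD, 1 is not reported here.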

Additional observations from a re-analysis of the deposited data

Results flagged for a closer look

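Of 32 groups of 4 to 10 mice, 6 held 1 mouse far from the others by Dixon's criterion, where chance gives about 1 in 20.

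The highest Gpr50 value among WT mice on chow was 17.8 CPM in mouse 4, and the next was 1.96 CPM. This is the library that stood apart in mesothelial and positional genes, and its part in the value was not tested. Gpr50 was also high in 1 KI mouse on HFD, mouse 5, at 0.504 CPM against 0.244 CPM in the next.

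Tmem132b reached 2.58 CPM in chow KI mouse 4 and 0.748 CPM in the next KI mouse. Skeletal muscle markers summed to 74740 CPM in that mouse and to at most 357.5 CPM in the other KI mice on chow, which was not tested as a source. Pkp1 reached 1.20 CPM in KI mouse 3 on HFD and 0.255 CPM in the next.

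Plppr4 reached 1.86 CPM in KI mouse 4 on HFD, and the next KI mouse had 1.02 CPM. Mup-ps21 reached 15.9 CPM in WT mouse 7 on HFD, and the next WT mouse had 11.3 CPM.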

How the results depend on the processing

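All 8 members stayed called lower on HFD under each alternative run, the 16 fits without 1 mouse included, and all 8 stayed lower in BAT than in inguinal WAT of WT mice, which the choice of members favours. Of 169 alternative values of the main counts 136 stayed within 1.5 times, and of 1066 values of single members none changed direction while called and 29 lost their call.

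On chow 5 members were called, but 3 without the filter on low counts and 2 to 4 when 1 mouse was left out. Tph2 stayed called in 6 of 13 such fits. With the replicate block 0 members were called on chow, 8 on HFD and 0 in BAT, and calls over all genes moved from 479 to 101, from 1886 to 1545 and from 243 to 363; the labels do not say that mouse numbers pair the mice, and same-number correlations exceeded 0.1 in 2 of 6, 2 of 8 and 3 of 6 pairs.

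The interaction with diet called 0 members, 1 at an adjusted p below 0.05, and 0 in each fit without 1 mouse. The interaction with depot called 1, but 4 by DESeq2, 3 at 0.05 and 0 to 2 without 1 mouse. Between diets in WT mice 2 were called, but 4 by DESeq2, 1 without the filter and 1 to 4 without 1 mouse. Among chow WT mice 0 pairs of members passed an adjusted p of 0.05, and 1 did without mouse 4. The cause of these moves was not tested. Low counts limit what chow and BAT can show: Gpr50, Tmem132b and Cacng5 could not be tested on chow, nor any member in BAT.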

Other observations

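Genes known to rise with the expansion of fat were called lower in KI mice for 2 of 8 genes on HFD, 1 of 8 on chow and 2 of 8 in BAT, where 5.24%, 1.22% and 0.475% of all genes were, with median log2 differences of -0.50, -1.48 and -1.29. On HFD Lep and Mest were called, at -0.62 (SE 0.15) and -1.88 (SE 0.14), and Npr3, Nnat and Bmp3 stood on the other side, at 0.39 (SE 0.11), 0.41 (SE 0.18) and 0.27 (SE 0.15), without being called. On chow the called gene was Peg3, an imprinted gene, which fell from 107 to 18.5 CPM (log2 difference -2.54, SE 0.49, adjusted p = 0.00698 by edgeR, or -2.72 and adjusted p = 0.00147 without WT mouse 4). In BAT it was called too, at a log2 difference of -2.26 (SE 0.39, adjusted p = 0.00616 by edgeR), with Sfrp5, a secreted Wnt antagonist, at -1.85 (SE 0.36, adjusted p = 0.0081).

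The library labelled WT chow mouse 4 also held plasma cell transcripts at levels above the other 28 inguinal libraries. Igkc was at 2372 CPM against 4.54 to 404 CPM, and Jchain at 300 CPM against 0.341 to 29.4 CPM.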
